A study of Mus musculus with 9 samples.

Results

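The platelet-derived growth factor (PDGF) family was followed through 3 gates of dermal cells that had been sorted from newborn mice. Its members were the rows of the expression table whose gene symbol was Pdgfa, Pdgfb, Pdgfc or Pdgfd, the ligands, or Pdgfra or Pdgfrb, the receptors. All 6 were found, 1 row each, among 84809 rows. RNA was sequenced from freshly isolated mesenchymal cells in 9 libraries, 3 each from the gates CD49f-high, CD49f-low and CD49f-neg. CD49f is the integrin α6 subunit, which binds laminin in basement membranes and is encoded by Itga6. All animals were of the strain Krt14 cre;Rosa26-mTmG, in which the keratin promoter of basal epidermis drives Cre and a membrane-bound fluorescent reporter switches from red to green after Cre has acted. The labels name neither the sex of the animals nor any treatment, and they leave unsaid whether each replicate was a separate animal and whether the reporter entered the sort. Values are FPKM (fragments per kilobase of transcript, scaled to the mapped fragments of the library), and the p-values below measure only the spread between these libraries.

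PDGF ligands are secreted dimers that are cut by proteases before they can act. PDGF-A and PDGF-B lose a short propeptide inside the cell, whereas PDGF-C and PDGF-D carry a CUB domain that is removed outside it. PDGF receptors α and β are class III receptor tyrosine kinases, which pair when a ligand binds and phosphorylate each other. PDGF receptor α is a broad marker of dermal fibroblasts, and PDGF receptor β marks pericytes and vascular smooth muscle, the mural cells that are recruited to vessels by endothelial PDGF-B. In skin, epidermal PDGF-A acts on the dermal mesenchyme around hair follicles.

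The members lie on 5 chromosomes of GRCm38. Pdgfra (ENSMUSG00000029231) lies at chr5:75152292-75198215 on the plus strand, followed along the chromosome by the related kinase genes Kit and Kdr. Pdgfa (ENSMUSG00000025856) lies at chr5:138976014-138997370 and Pdgfb (ENSMUSG00000000489) at chr15:79995900-80014808, both on the minus strand. Pdgfc (ENSMUSG00000028019) lies at chr3:81036416-81214040 and Pdgfd (ENSMUSG00000032006) at chr9:6168612-6378843, both on the plus strand. RefSeq promoter windows on GRCm38.p6, of 250 bases before a start, were at hand for 4 members, Pdgfa, Pdgfc, Pdgfd and Pdgfra. Those of the 3 called members among them are shown, so that the upstream bases of the genes that differed between gates can be read beside their levels. Pdgfra is given at chr5:75152001-75152250 and Pdgfd at chr9:6168236-6168485, both on the plus strand. Of the outer Pdgfa window, the 157 bases outside annotated exons are given, at chr5:138995038-138995194 on the minus strand. Both Pdgfa windows precede RefSeq starts that lie inside the span of the gene given above. The stretch shown also overlaps the gene 6330403L08Rik on the opposite strand. Capitals mark a TATAAA match.
Pdgfra: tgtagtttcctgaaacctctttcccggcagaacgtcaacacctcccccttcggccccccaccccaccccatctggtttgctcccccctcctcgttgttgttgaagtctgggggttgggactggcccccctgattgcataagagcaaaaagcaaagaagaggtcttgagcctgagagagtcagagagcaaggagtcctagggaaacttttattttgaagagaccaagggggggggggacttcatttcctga
Pdgfd: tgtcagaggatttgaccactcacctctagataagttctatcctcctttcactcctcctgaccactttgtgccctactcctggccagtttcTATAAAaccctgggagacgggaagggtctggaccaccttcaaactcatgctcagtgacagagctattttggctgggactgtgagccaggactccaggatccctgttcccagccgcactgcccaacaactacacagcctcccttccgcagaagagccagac
Pdgfa: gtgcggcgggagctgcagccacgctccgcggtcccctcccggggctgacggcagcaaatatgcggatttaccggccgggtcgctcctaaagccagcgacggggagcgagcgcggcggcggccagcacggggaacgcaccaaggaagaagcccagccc

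The Pdgfa window was rich in CG pairs, unlike the other 2. Over the full 250 bases it held 28 CG pairs and 72.4% G or C, against 4 and 54.4% for Pdgfra and 3 and 53.6% for Pdgfd. The medians over 32851 RefSeq windows of that length were 6 CG pairs and 52.4%. Windows were searched on both strands for GGGCGG (the GC box), TATAAA (the core of a TATA box), CCAAT (the CCAAT box) and GCGTGGGCG (an EGR site), which occurred in 32.7%, 12.4%, 33.8% and 0.536% of all windows. The outer Pdgfa window held 2 GC boxes, both past the stretch shown, the inner Pdgfa window held 1, Pdgfd held the TATAAA and the Pdgfra window held no match. A match describes the letters and is no sign of binding.

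Libraries were similar in depth and matched their gates. The spacing of the lowest FPKM values put 1 FPKM over 1 kilobase at about 23.7 to 27.3 fragments, an estimate that takes a fragment to be a read pair. Itga6 stood at 19.9 ± 4.11 FPKM in CD49f-high, 5.51 ± 0.979 in CD49f-low and 0.475 ± 0.216 in CD49f-neg (SD, n = 3 each). Of the 84809 rows, 20523 reached 1 FPKM in at least 3 libraries and were tested, and 5 of the 6 members were among them. The median log2 fold change over these rows was 0.07 for CD49f-high against CD49f-neg, 0.21 for CD49f-low against CD49f-neg and -0.15 for CD49f-high against CD49f-low, and members' changes are read against these shifts.

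CD49f-high cells had more Pdgfrb, Pdgfa and Pdgfb transcript and less Pdgfra and Pdgfd transcript than CD49f-neg cells. In that comparison 3 of the 5 members tested were higher and 2 lower, beside 22.1% of all rows called (13.9% higher and 8.27% lower), with calls made at an adjusted p under 0.05. Between CD49f-low and CD49f-neg, Pdgfa and Pdgfb were higher and Pdgfd lower, 3 of 5 members beside 15.4% of all rows (12.8% higher and 2.62% lower). Between CD49f-high and CD49f-low, Pdgfa, Pdgfb and Pdgfrb were higher and Pdgfra lower, 4 of 5 members beside 16.4% of all rows (5.93% higher and 10.5% lower). Comparisons that share a gate share its libraries. In bulk RNA, fewer cells of a type and less RNA per cell cannot be told apart.

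**Figure D1:**
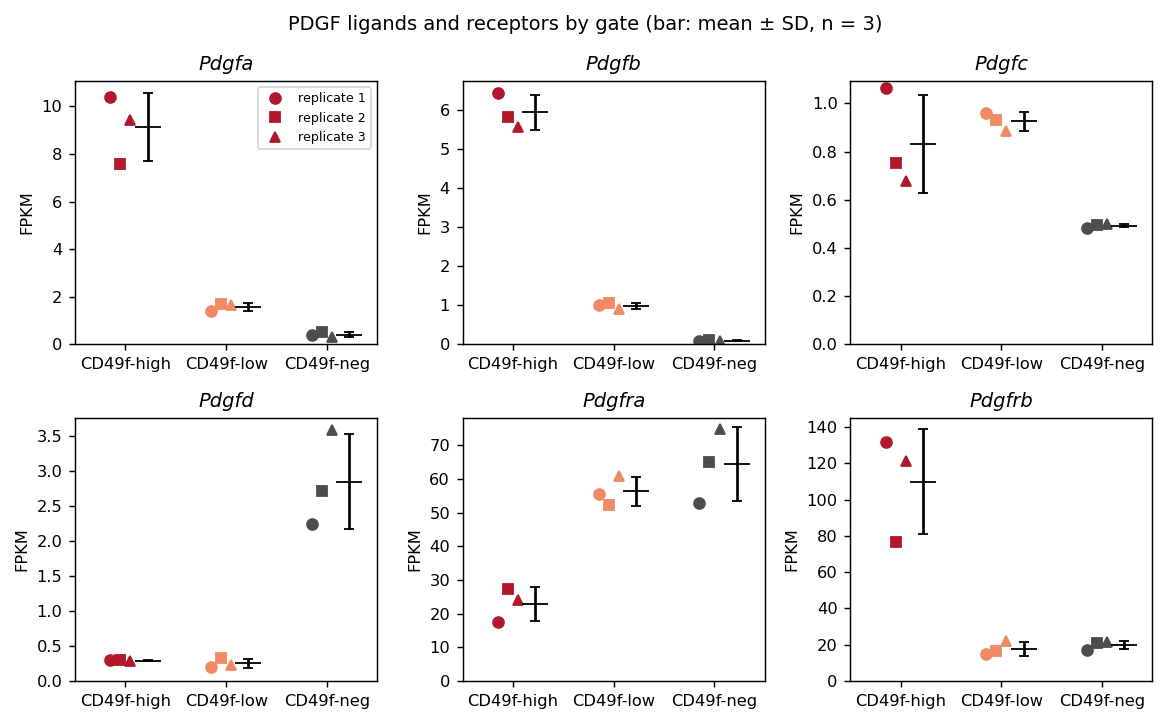
FPKM of the 6 PDGF members in each library, by gate, on linear axes that start at 0; symbols give the replicate and the black bar the mean ± SD (n = 3). Pdgfrb, Pdgfa and Pdgfb stand highest in CD49f-high, Pdgfra is lowest there, and Pdgfd stands above 2 FPKM only in CD49f-neg.

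Among the receptors, Pdgfrb (ENSMUSG00000024620, chr18:61045150-61085061, plus strand) was the member with the highest level anywhere. Its 3 CD49f-high libraries read 131.5, 76.8 and 121.2 FPKM, its CD49f-low libraries 14.8, 16.5 and 22.1 FPKM, and its CD49f-neg libraries 17.3, 21.0 and 21.5 FPKM. Every CD49f-high library stood above all others, and the ranges of CD49f-low and CD49f-neg overlapped. The means were 109.8 ± 29.1, 17.8 ± 3.81 and 19.9 ± 2.29 FPKM in CD49f-high, CD49f-low and CD49f-neg (SD, n = 3 each). On the log2(FPKM + 1) scale, which all fold changes below use and which understates the change of low genes, Pdgfrb was higher by 2.37 in CD49f-high against CD49f-neg (SE 0.22, adjusted p = 5.79e-05, limma) and by 2.54 against CD49f-low (SE 0.22, adjusted p = 7.89e-05, limma). The difference of CD49f-low minus CD49f-neg was -0.17, with a 95% interval of -0.65 to 0.32 (adjusted p = 0.615, limma), so a change within these bounds could not be told from the spread. The Pdgfrb row also covers a noncoding gene with no symbol.

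Pdgfra was lowest in CD49f-high, the gate in which Pdgfrb was highest. It stood at 17.4, 27.3 and 24.1 FPKM in CD49f-high, 55.5, 52.3 and 61.0 FPKM in CD49f-low and 53.0, 65.1 and 74.9 FPKM in CD49f-neg. The 3 CD49f-high libraries lay below all 6 others, which overlapped one another. The means were 22.9 ± 5.05 FPKM in CD49f-high, 56.3 ± 4.39 in CD49f-low and 64.3 ± 11.0 in CD49f-neg. For CD49f-high against CD49f-neg, Pdgfra had a log2 fold change of -1.46 (SE 0.18, adjusted p = 0.000351, limma), a ratio of mean FPKM of 0.356, and against CD49f-low it had -1.28 (SE 0.18, adjusted p = 0.00117, limma). CD49f-low minus CD49f-neg was -0.18, with a 95% interval of -0.58 to 0.22 (adjusted p = 0.510, limma), beside a median of 0.21 over all rows. After median-of-ratios scaling, which brings that median near 0, the difference was -0.46 for Pdgfra (adjusted p = 0.184, limma) and -0.44 for Pdgfrb (adjusted p = 0.276, limma), and neither was called. Its lowest library in any gate was at 17.4 FPKM. The row also carries the name Mir7025, a microRNA inside the gene.

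The receptors exchanged places in CD49f-high. Pdgfra took 11.7%, 26.2% and 16.6% of the summed receptor FPKM there, 78.9%, 76.0% and 73.4% in CD49f-low and 75.4%, 75.6% and 77.7% in CD49f-neg. Pdgfrb was the more abundant receptor transcript in all 3 CD49f-high libraries, and Pdgfra in all 6 others. The receptor balance, log2(Pdgfra + 1) minus log2(Pdgfrb + 1), averaged -2.20 in CD49f-high, 1.62 in CD49f-low and 1.63 in CD49f-neg, a difference of -3.83 between CD49f-high and CD49f-neg. An exact permutation test over the 3 gates gave p = 0.0357, where the smallest it can give is 0.00357. With gates permuted within each replicate number, which pairs the libraries, the exact p was 0.111. Any pair of gates, 3 libraries against 3, can reach no less than 0.1, and gave 0.1 for CD49f-high against either other gate and 1.0 for CD49f-low against CD49f-neg. The summed receptor level was 132.8 FPKM in CD49f-high, 74.1 in CD49f-low and 84.2 in CD49f-neg.

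Pdgfa, whose product binds receptor α, was the most abundant ligand transcript in CD49f-high. It stood at 10.4, 7.59 and 9.44 FPKM in CD49f-high, 1.38, 1.68 and 1.64 FPKM in CD49f-low and 0.394, 0.506 and 0.310 FPKM in CD49f-neg. The 3 gates did not overlap, in the order high, low, negative. The means were 9.13 ± 1.42, 1.57 ± 0.161 and 0.403 ± 0.0985 FPKM in that order, a ratio of mean FPKM of 22.6 for CD49f-high against CD49f-neg and 3.89 for CD49f-low against CD49f-neg. The log2 fold changes were 2.84 for CD49f-high against CD49f-neg (SE 0.13, adjusted p = 3.09e-06, limma), 0.87 for CD49f-low against CD49f-neg (SE 0.13, adjusted p = 0.00233, limma) and 1.97 for CD49f-high against CD49f-low (SE 0.13, adjusted p = 2.97e-05, limma).

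Pdgfb, whose product binds both receptors, followed the same order from a lower start. It stood at 6.43, 5.83 and 5.56 FPKM in CD49f-high, 1.00, 1.06 and 0.892 FPKM in CD49f-low and 0.0817, 0.115 and 0.0880 FPKM in CD49f-neg. Again no 2 gates overlapped. The CD49f-neg values rest on an estimated 6.1 to 8.8 fragments per library, those of CD49f-low on 66.1 to 80.8 and those of CD49f-high on 418.3 to 452.3. The means were 5.94 ± 0.442 FPKM in CD49f-high, 0.984 ± 0.0845 in CD49f-low and 0.0948 ± 0.0175 in CD49f-neg. Pdgfb was higher by 2.66 in CD49f-high against CD49f-neg (SE 0.11, adjusted p = 2.55e-06, limma), by 0.86 in CD49f-low against CD49f-neg (SE 0.11, adjusted p = 0.000707, limma) and by 1.81 in CD49f-high against CD49f-low (SE 0.11, adjusted p = 1.97e-05, limma). Pdgfa passed the filter on low values through 6 libraries and Pdgfb through 5, none of them from CD49f-neg, so a difference from that gate was built into their being tested.

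Pdgfd, whose product acts mainly on receptor β, was the ligand of the negative gate. It stood at 0.298, 0.298 and 0.280 FPKM in CD49f-high, 0.199, 0.327 and 0.232 FPKM in CD49f-low and 2.24, 2.73 and 3.60 FPKM in CD49f-neg. All 3 CD49f-neg libraries lay above the 6 others, and CD49f-high lay within the range of CD49f-low. The means were 0.292 ± 0.0101 FPKM in CD49f-high, 0.253 ± 0.0666 in CD49f-low and 2.86 ± 0.687 in CD49f-neg. Pdgfd fell by 1.56 in CD49f-high against CD49f-neg (SE 0.14, adjusted p = 5.88e-05, limma) and by 1.61 in CD49f-low against CD49f-neg (SE 0.14, adjusted p = 9.54e-05, limma). CD49f-high minus CD49f-low was 0.05, with a 95% interval of -0.27 to 0.37 (adjusted p = 0.848, limma). Pdgfd passed the filter through the CD49f-neg libraries alone, so a difference from that gate was built into its being tested.

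Pdgfc, whose product like PDGF-A acts mainly through receptor α, was low in every gate. It stood at 1.06, 0.754 and 0.677 FPKM in CD49f-high, 0.962, 0.932 and 0.885 FPKM in CD49f-low and 0.484, 0.494 and 0.497 FPKM in CD49f-neg. CD49f-high and CD49f-low overlapped, and both lay above CD49f-neg. With 1 library at 1 FPKM or more it did not pass the filter. In the fit without a filter over all 84809 rows its differences were 0.29 for CD49f-high against CD49f-neg (adjusted p = 0.169, limma), 0.37 for CD49f-low against CD49f-neg (adjusted p = 0.104) and -0.08 for CD49f-high against CD49f-low (adjusted p = 0.734), and none was called.

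**Figure D2:**
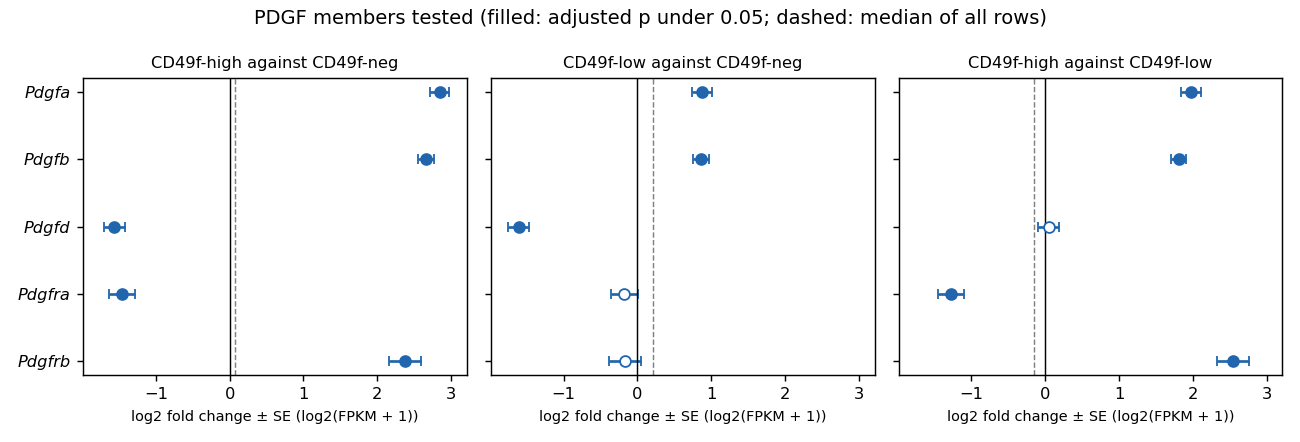
Log2 fold change ± SE on log2(FPKM + 1) of the 5 PDGF members tested, 1 panel per pair of gates; filled points had an adjusted p under 0.05 and the dashed line is the median of all 20523 rows. Pdgfa and Pdgfb lie to the right in all 3 panels, whereas the receptors lie near 0, at -0.18 and -0.17, between CD49f-low and CD49f-neg, and on opposite sides of 0 in both comparisons of CD49f-high.

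The mix of ligands differed between all 3 gates. Pdgfa and Pdgfb made up 56.2% and 36.8% of the summed ligand FPKM in CD49f-high, 42.0% and 26.4% in CD49f-low and 10.8% and 2.50% in CD49f-neg, as means of 3 libraries. Pdgfd made up 1.82% in CD49f-high, 6.71% in CD49f-low and 73.7% in CD49f-neg. Pdgfc took its largest share in CD49f-low, 24.9%, against 5.10% in CD49f-high and 13.0% in CD49f-neg. The summed ligand level was 16.2 ± 1.86 FPKM in CD49f-high, 3.73 ± 0.237 in CD49f-low and 3.85 ± 0.646 in CD49f-neg. CD49f-low and CD49f-neg overlapped in this sum, while holding different ligands. These shares are a description with no test of their own, and every ligand sum was below the receptor sum of its library.

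**Figure D3:**
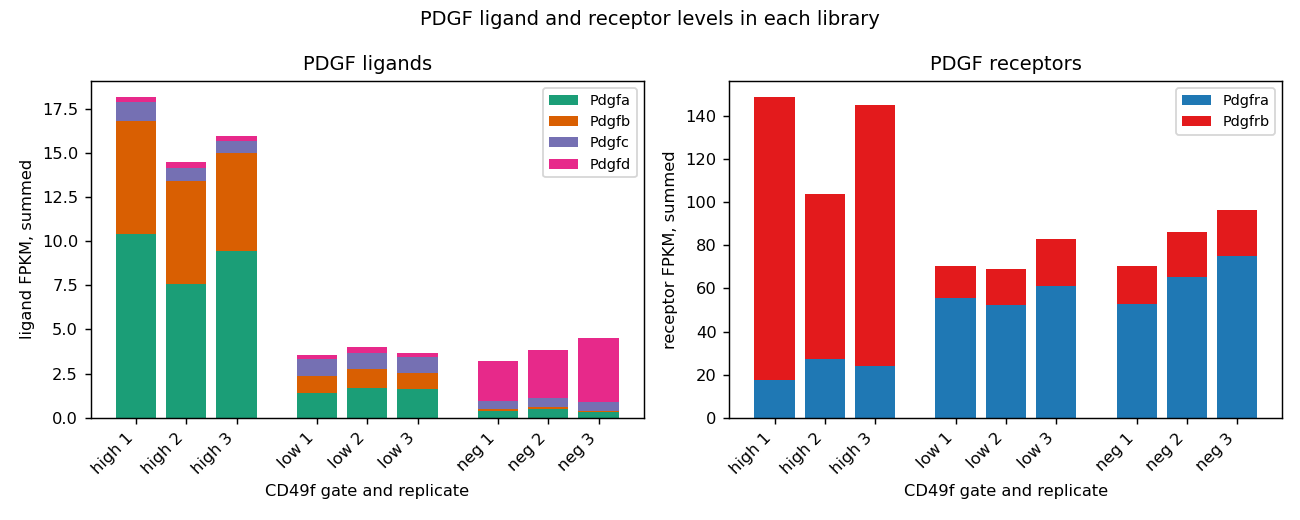
Summed FPKM of the 4 PDGF ligands (left) and 2 receptors (right) in each of the 9 libraries, stacked by gene, with CD49f-high first. Ligand sums reach 14.5 to 18.2 FPKM in CD49f-high, mostly Pdgfa and Pdgfb, and Pdgfrb takes most of the receptor sum there alone.

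Markers of mural cells were higher in CD49f-high together with Pdgfrb, Pdgfa and Pdgfb. All 12 mural markers rose in CD49f-high against CD49f-neg, beside 13.9% of all rows, with a median log2 fold change of 3.71 beside 0.07 over all rows. Among them, Myh11 and Higd1b reached 1 FPKM in no CD49f-neg library, so a difference from that gate was built into their being tested. In CD49f-low against CD49f-neg 6 of 12 rose, beside 12.8% of all rows, and there Pdgfa and Pdgfb rose while Pdgfrb was not called. Their summed level was 814 to 1475 FPKM in CD49f-high, 98.1 to 175 in CD49f-low and 33.8 to 47.6 in CD49f-neg. Among the most abundant were Rgs5, a regulator of G protein signalling in pericytes, at 356 ± 98.0, 10.5 ± 9.69 and 0.249 ± 0.166 FPKM in CD49f-high, CD49f-low and CD49f-neg, and Myh11, smooth muscle myosin, at 191 ± 76.5, 12.9 ± 6.95 and 0.354 ± 0.0797 FPKM. Acta2, smooth muscle actin, stood at 167 ± 77.2 FPKM in CD49f-high, 37.5 ± 14.4 in CD49f-low and 1.27 ± 0.252 in CD49f-neg. Within CD49f-high, replicate 2 had the lowest mural sum, the lowest Pdgfrb and the highest Pdgfra, while replicate 1 had the highest mural sum and Pdgfrb and the lowest Pdgfra. Pdgfa had the order of the mural sum there and Pdgfb did not. Other lists varied alike in replicates 1, 2 and 3. Fibroblast markers, at 4120, 6136 and 6007 FPKM, had the order of Pdgfra. Skeletal muscle markers, at 59.9, 31.4 and 47.4 FPKM, had that of the mural sum. Most of that muscle sum was Des, which the mural list also holds, so these orders are not independent. With 3 libraries no list can be singled out. Without CD49f-high replicate 2 the receptor balance of CD49f-high minus CD49f-neg was -4.20, and without replicate 1 it was -3.51. The part of mural cells in the members' differences was not tested.

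**Figure D4:**
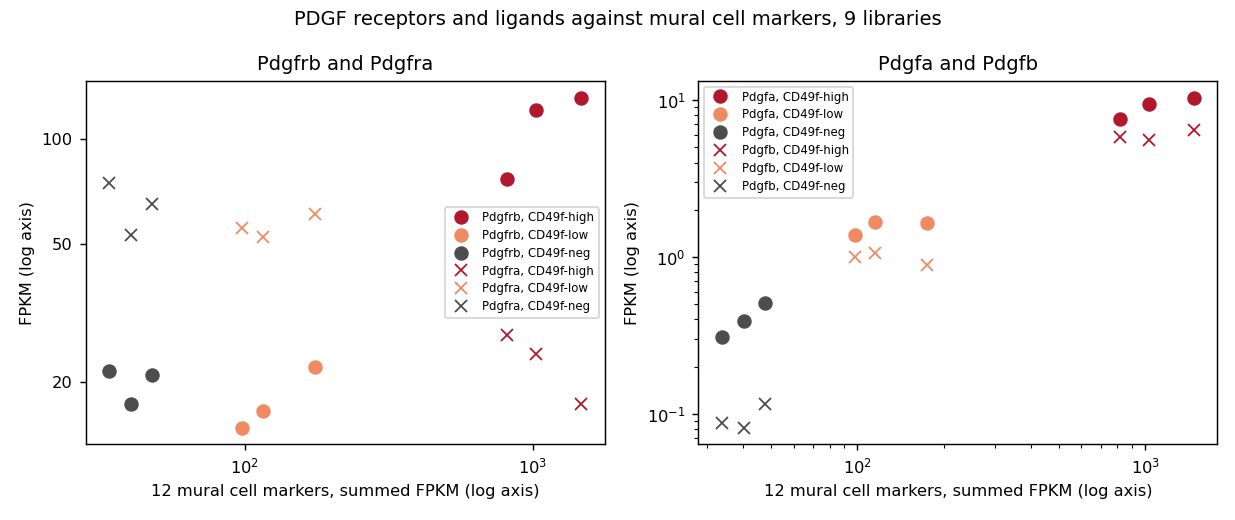
FPKM of Pdgfrb and Pdgfra (left) and of Pdgfa and Pdgfb (right) against the summed FPKM of 12 mural cell markers in each of the 9 libraries, on log axes, coloured by gate. The CD49f-high libraries stand apart at 814 to 1475 FPKM of markers, with Pdgfrb above and Pdgfra below the other gates.

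Other cell types differed between the gates as well. Endothelial cells are a known source of PDGF-B, and their 12 markers summed to 27.6 to 54.7 FPKM in CD49f-high, 11.3 to 13.9 in CD49f-low and 3.49 to 5.94 in CD49f-neg. Of the 8 endothelial markers tested, 5 rose in CD49f-high against CD49f-neg, beside 13.9% of all rows. None of these 5 reached 1 FPKM in any CD49f-neg library, so a difference from that gate was built into their being tested. With the filter at 5 FPKM only Esam was tested, and it rose. It passed that filter through the CD49f-high libraries alone, so its rise was built in there too. Cdh5, the endothelial cadherin, stood at 5.30, 0.508 and 0.0785 FPKM in CD49f-high, CD49f-low and CD49f-neg. Kdr, on the same list, went another way, at 1.49, 3.62 and 0.690 FPKM, and was called lower in CD49f-high against CD49f-low. The joined row of Egfl7, at 1.18, 0.988 and 1.21 FPKM, was not called in any comparison. Emcn was below 1 FPKM in every library, and Pecam1 averaged 0.953 FPKM in CD49f-high. Fibroblast markers fell in both gates against CD49f-neg, 11 of 12 in CD49f-high, beside 8.27% of all rows, and 9 of 12 in CD49f-low, beside 2.62%, while Pdgfra was called in CD49f-high and not in CD49f-low. Their sums were 4120 to 6136 FPKM in CD49f-high, 5683 to 6943 in CD49f-low and 14055 to 17132 in CD49f-neg. Schwann cell markers summed to 51.9 to 277 FPKM in CD49f-high, 44.8 to 61.7 in CD49f-low and 2.26 to 4.80 in CD49f-neg, and keratinocyte markers to 28.6 to 62.8, 32.4 to 35.7 and 3.67 to 4.65 FPKM. Much of the CD49f-low keratinocyte sum was Cdh1, at 3.54, 18.7 and 0.0794 FPKM in CD49f-high, CD49f-low and CD49f-neg. The joined row of Krt5 stood at 8.97, 1.69 and 0.216 FPKM in that order. Of 10 immune and platelet markers, 7 were below 1 FPKM in all libraries, Ptprc and Pf4 among them, and the platelet integrin gene Itga2b averaged 0.569 FPKM in CD49f-high, 0.831 in CD49f-low and 0.978 in CD49f-neg. Melanocyte markers summed to 32.9 to 75.8 FPKM in CD49f-high, 474 to 583 in CD49f-low and 6.22 to 6.40 in CD49f-neg. Dermal papilla markers summed to 31.3 to 41.8 FPKM in CD49f-high, 188 to 204 in CD49f-low and 95.9 to 114 in CD49f-neg. In CD49f-high against CD49f-low 10 of 10 fell, beside 10.5% of all rows, and 8 of 10 melanocyte markers fell too. Against CD49f-neg, where Pdgfra also fell, 5 dermal papilla markers rose and 5 fell in CD49f-high, beside 13.9% and 8.27% of all rows. Of those that rose, Corin and Alpl reached 1 FPKM in no CD49f-neg library. Adipocyte markers summed to 51.9 to 345, 100 to 119 and 40.4 to 61.7 FPKM in CD49f-high, CD49f-low and CD49f-neg. The 345 was CD49f-high replicate 1 alone, beside 68.5 and 51.9 FPKM in replicates 2 and 3. That library, with the highest Pdgfrb and the lowest Pdgfra, also had the lowest Schwann sum of its gate. Schwann sums were 51.9, 226 and 277 FPKM in CD49f-high replicates 1, 2 and 3. Skeletal muscle markers summed to 31.4 to 59.9, 17.6 to 25.5 and 2.51 to 3.86 FPKM in the same order. Most of the CD49f-high sum was Des, which the mural list also holds, at 42.5, 3.23 and 1.67 FPKM, whereas Myog, a myogenic factor, stood at 0.769, 5.91 and 0.0351 FPKM, with its highest level in CD49f-low. The part of these cells in the members' values was not tested.

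The genes around the receptors were taken from 5 lists. Calls over all rows also moved with the setting, so list counts under other settings are not to be read against the shares above. Among 12 measured genes for ligand processing, retention and co-receptors, 6 fell and 2 rose in CD49f-high against CD49f-neg, with a median of -0.54, beside 8.27% of all rows lower and 13.9% higher. The share that rose was near that of all rows. Pdgfrl, a receptor-like protein without a kinase domain, stood at 4.67 FPKM in CD49f-high, 8.35 in CD49f-low and 18.8 in CD49f-neg, a log2 fold change of -1.80 between CD49f-high and CD49f-neg (adjusted p = 1.89e-05, limma). Sparc, a matrix protein that binds PDGF-B, stood at 416, 424 and 789 FPKM in CD49f-high, CD49f-low and CD49f-neg, and Pcsk5, a proprotein convertase, at 3.89, 5.83 and 10.2 FPKM. The neuropilins, co-receptors for several growth factors, went opposite ways: Nrp1 stood at 25.6 FPKM in CD49f-high against 15.2 in CD49f-neg, a log2 fold change of 0.71, and Nrp2 at 4.54 against 9.16 FPKM, a log2 fold change of -0.87. Pcsk6 was also lower, but its row is joined with Snrpa1 and its share is uncertain. The 2 genes that rose were Nrp1 and Plau, and the count was 1 without CD49f-neg replicate 2, CD49f-neg replicate 3 or CD49f-high replicate 2. In CD49f-low against CD49f-neg, where 2.62% of all rows fell, 4 fell and 0 rose in limma, where 1 rose at an unadjusted p under 0.05. After median-of-ratios scaling 7 fell, and the count over all rows that fell went from 537 to 1093. In CD49f-high against CD49f-low 1 rose and 3 fell, beside 5.93% of all rows higher and 10.5% lower, so the share that rose was near that of all rows. With the replicate block 1 rose in CD49f-low against CD49f-neg and 2 in CD49f-high against CD49f-low, and 2 also rose between CD49f-high and CD49f-low after either rescaling and without CD49f-neg replicate 1 or CD49f-high replicate 3.

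Of 35 genes of proximal receptor signalling, 7 rose and 1 fell in CD49f-high against CD49f-neg, with a median of 0.13, beside 13.9% of all rows higher and 8.27% lower. Nck2, an SH2 adaptor, stood at 13.1 FPKM in CD49f-high, 6.74 in CD49f-low and 4.19 in CD49f-neg, a log2 fold change of 1.44 between CD49f-high and CD49f-neg. The docking protein gene Gab2 stood at 9.95, 7.46 and 3.71 FPKM and its relative Gab1 at 6.78, 5.23 and 3.35 FPKM in CD49f-high, CD49f-low and CD49f-neg. Fyn, a Src family kinase, was the member that fell, at 8.34 against 15.1 FPKM in CD49f-high and CD49f-neg; 2 fell without CD49f-high replicate 2 and after either rescaling. In CD49f-low against CD49f-neg, where 12.8% of all rows rose, 6 rose, beside 10 with the replicate block, 2 after either rescaling, 2 without CD49f-low replicate 3 and 3 without CD49f-neg replicate 2 or 3. In CD49f-high against CD49f-low 2 rose and 3 fell, close to the 5.93% and 10.5% of all rows, beside 5 and 5 with the replicate block, and the 2 became 6 and the 3 became 1 after median-of-ratios scaling. The 2 became 5 after quantile normalization and 1 with no filter or without CD49f-low replicate 2 or CD49f-high replicate 3, and the 3 became 1 with the filter at 5 FPKM.

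Of 19 measured genes that dampen receptor signalling, 9 rose and none fell in CD49f-high against CD49f-neg in limma, with a median of 0.72, beside 13.9% of all rows higher and 8.27% lower. At an unadjusted p under 0.05 the counts were 15 and 0. Spry4, a Sprouty inhibitor of the Ras pathway, stood at 46.7 FPKM in CD49f-high, 8.21 in CD49f-low and 3.68 in CD49f-neg, a log2 fold change of 3.41 (adjusted p = 0.000350, limma). Socs3, a suppressor of cytokine signalling, stood at 88.7, 24.5 and 14.5 FPKM in that order, a log2 fold change of 2.55 (adjusted p = 1.75e-05, limma). Dusp4, a MAP kinase phosphatase, was high in both positive gates, at 8.46 FPKM in CD49f-high and 9.47 in CD49f-low, against 1.64 in CD49f-neg. In CD49f-low against CD49f-neg 8 rose, beside 12.8% of all rows. But 3 did after median-of-ratios scaling or without CD49f-low replicate 3, and 4 did after quantile normalization or with no filter. Without CD49f-low replicate 1 or CD49f-neg replicate 2 or 3, 4 or 5 did. Over all rows the count fell too, from 2623 to 1117 after median-of-ratios scaling and to 1342 without CD49f-low replicate 3. In CD49f-high against CD49f-low 5 rose and 1 fell, beside 5.93% of all rows higher and 10.5% lower. With the replicate block 8 rose, where 1657 of all rows did, against 1216 without it.

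Of 24 early genes that PDGF induces in cultured fibroblasts, 8 rose in CD49f-high against CD49f-neg, with a median of 0.42, beside 13.9% of all rows. At an unadjusted p under 0.05, 10 rose. Egr3, a zinc finger factor, stood at 16.5 FPKM in CD49f-high, 6.60 in CD49f-low and 2.06 in CD49f-neg, and Sphk1, a sphingosine kinase, at 2.41, 1.18 and 0.887 FPKM. The count was 5 with no filter and 4 without CD49f-neg replicate 2, CD49f-neg replicate 3 or CD49f-high replicate 2. Many of these genes also respond to tissue dissociation, and Fos was at 435, 344 and 261 FPKM in CD49f-high, CD49f-low and CD49f-neg. In CD49f-low against CD49f-neg Egr3 alone rose, a smaller share than the 12.8% of all rows. With the replicate block 5 genes rose, where the count over all rows went from 2623 to 4916. The count was 2 with the filter at 5 FPKM and 3 when CD49f-neg replicate 1 was left out. In CD49f-high against CD49f-low 2 rose, a share near the 5.93% of all rows. That count was 8 with the replicate block, 4 when those 6 libraries were fitted alone and 1 with the filter at 5 FPKM. It lay between 0 and 4 as single libraries were left out (0 when CD49f-low replicate 3 was left out, 1 for CD49f-high replicate 3, and 4 for CD49f-neg replicate 1 or 3).

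**Figure D5:**
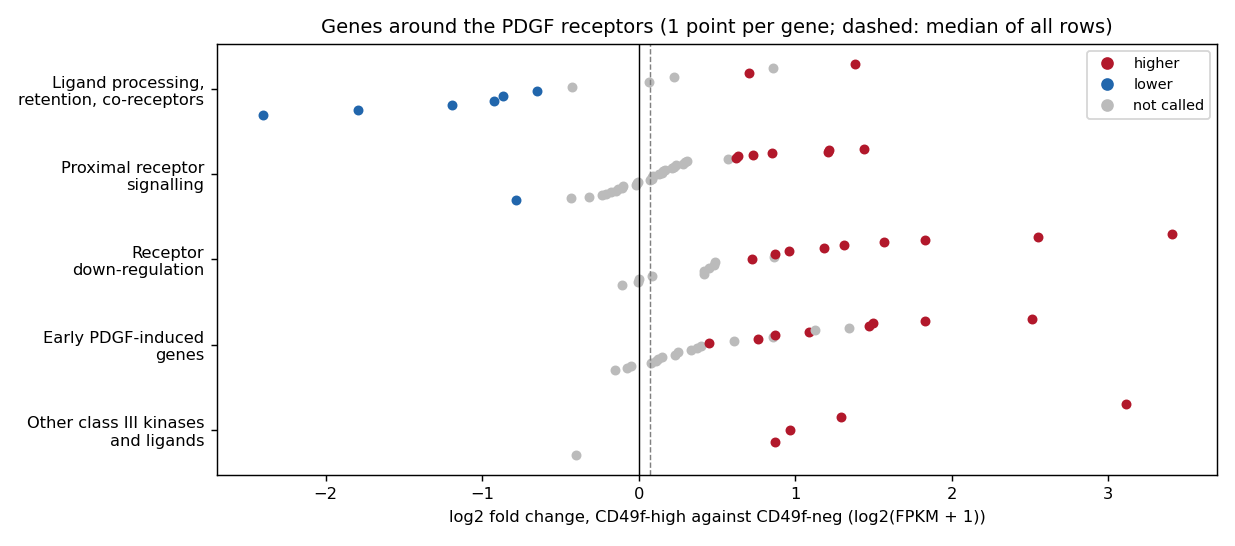
Log2 fold change of CD49f-high against CD49f-neg on log2(FPKM + 1) for the measured genes of 5 lists, 1 point per gene, red where higher and blue where lower at an adjusted p under 0.05; the dashed line is the median of all rows. Processing and co-receptor genes have 6 blue points, and down-regulation genes have 9 red points and no blue one.

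Other class III receptor kinases and their ligands differed among themselves. Kit, which neighbours Pdgfra on the same chromosome, at chr5:75574916-75656722, stood at 1.82 FPKM in CD49f-high, 23.1 in CD49f-low and 0.445 in CD49f-neg, and is itself 1 of the melanocyte markers. Kdr, the next gene, at chr5:75932827-75978458, was at 1.49, 3.62 and 0.690 FPKM. Kitl, the ligand of Kit, was at 29.8 FPKM in CD49f-high, 8.97 in CD49f-low and 11.7 in CD49f-neg. Il34, a ligand of the colony-stimulating factor receptor, had a pattern near that of Pdgfrb, at 13.1 FPKM in CD49f-high, 0.583 in CD49f-low and 0.609 in CD49f-neg, a log2 fold change of 3.11 between CD49f-high and CD49f-neg. Of the 5 genes measured, 4 rose and none fell in that comparison in limma, beside 13.9% of all rows higher and 8.27% lower, as at an unadjusted p under 0.05, and with the replicate block 1 fell. Neither Il34 nor Kit reached 1 FPKM in any CD49f-neg library, and Il34 passed the filter only with the CD49f-high libraries. A difference from CD49f-neg was thus built into their being tested. Csf1r and Flt3 were below 1 FPKM in every library.

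Across the 9 libraries the members fell into groups of like pattern. Pearson's r on log2(FPKM + 1) was 0.996 between Pdgfa and Pdgfb and -0.934 between Pdgfra and Pdgfrb, as a description over 9 libraries of 3 gates, in which the differences between gates set most of r. Among 4697 well-measured genes, the closest to Pdgfrb were Abcc9 (0.987), a potassium channel subunit of pericytes, Gcc1 (0.986) and Gng11 (0.986). The closest to Pdgfra were Phldb2 (0.988), Smarca2 (0.985) and Wif1 (0.984), a secreted Wnt inhibitor. Pdgfa was closest to Mprip (0.997), Tinagl1 (0.996) and Gja4 (0.996), an arterial connexin, and Pdgfb to Foxs1 (0.995), Mprip (0.992) and Crip2 (0.991). Pdgfd was closest to Smoc2 (0.984), Fkbp9 (0.974) and Adamts2 (0.964), a procollagen protease. Smoc2 stood at 6.80 FPKM in CD49f-high, 7.23 in CD49f-low and 37.7 in CD49f-neg, so it shared with Pdgfd both the high negative gate and the like level of the other 2.

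Some rows overlap members and bear on how their FPKM can be read. The gene 6330403L08Rik lies on the strand opposite Pdgfa, at chr5:138995056-139000577, across its start. It stood at 3.35, 3.67 and 3.60 FPKM in CD49f-high, 0.692, 1.38 and 1.15 FPKM in CD49f-low and 0.417, 0.738 and 0.518 FPKM in CD49f-neg, the order of gates of Pdgfa. The labels do not state whether libraries kept the strand, so reads from the pair cannot be told apart. Within the span of Pdgfd, 3 rows without a symbol on the same strand stood at 0.707 to 1.48 FPKM in CD49f-neg and at 0.166 FPKM or less in both other gates. The row that holds Dync2h1 also covers chr9:5960661-6992562, on the strand opposite Pdgfd, though Dync2h1 itself lies outside Pdgfd. It stood at 1.38 to 1.79 FPKM in CD49f-high, 2.20 to 2.57 in CD49f-low and 1.61 to 1.78 in CD49f-neg. Whether its reads and those of Pdgfd mix cannot be told. These rows were chosen after their values were seen.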

How the data were processed

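Expression was measured in 9 libraries, grouped by the gate named in their titles, 3 per gate. Trizol lysis followed the sort directly, and the NEBNext Ultra kit served for library preparation, per the labels' protocols. The authors deposited FPKM per gene row, and the tools were StringTie, TopHat2 and FastQC on GRCm38, per the submitters' processing notes, without versions. How FPKM were computed and whether strand was used is not given in the sources used here. Such values are relative, so a large change in a few abundant genes shifts all others.

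The deposited FPKM were taken as log2(FPKM + 1), rows that reached 1 FPKM in 3 or more libraries were kept, and gates were compared in limma 3.58.1 (R 4.3.3) with a group means model and an empirical Bayes trend. The p-values were adjusted by Benjamini-Hochberg over 20523 rows and called under 0.05. A row that joins several genes is uncertain as to which it measured. Depth was estimated from the FPKM spacing, and counting error was not modelled. The balance of the receptors was tested by exact permutation, two-sided by construction. Lists were described by their calls and median only.

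Libraries of the same replicate number deviated together from their gate means (r = 0.252 to 0.520 over 9 pairs, against -0.453 to 0.118 over 18 pairs of different numbers). The numbers were therefore taken to pair the libraries. The 2 ranges are not independent, because deviations from a gate mean cancel within the gate. The pairing comes from the values, since the labels give no source for it, and enters only as the replicate block. Unless the block is named, p-values, calls and shares over all rows come from fits without the pairing. The members, lists and tests were chosen with earlier results of these data known. Named genes were, per list and comparison, the called members (4 at most) with the lowest adjusted p between CD49f-high and CD49f-neg, not all of which are printed, the most abundant markers and the genes of most like pattern. Fos, Cdh5, Pecam1, Des, Emcn, Plau, Kdr, Higd1b, Dync2h1, 6330403L08Rik and the rows inside Pdgfd were added after their values were seen. The script was tested on simulated data. Python 3.11.15, numpy 2.4.6, pandas 2.3.3, scipy 1.17.1 and matplotlib 3.10.9 were used.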

Additional observations from a re-analysis of the deposited data

How the results depend on the processing

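Every result of a tested PDGF member kept its direction and its side of the threshold, in all 252 refits in which it was tested, across quantile normalization, median-of-ratios scaling, a filter at 5 FPKM or none, a pseudocount of 0.1, the replicate block, variance without a trend, a fit on 6 libraries and each library left out. Many of these refits could not change a direction. The filters, the trend, the block, the fit on 6 libraries and a library left out of the third gate leave the fold change as it was. There only the side of the threshold could move. The sizes moved most for low genes: Pdgfb in CD49f-low against CD49f-neg ranged between 0.56 and 2.48 and Pdgfa between 0.60 and 1.74, the upper ends at the pseudocount of 0.1. That pseudocount gave 4.96 for Pdgfb in CD49f-high against CD49f-neg and, for Pdgfd, -2.89 in CD49f-high and -3.06 in CD49f-low against CD49f-neg. With the filter at 5 FPKM Pdgfd was not tested, and with no member reversed, 4 members were called between CD49f-high and CD49f-neg, 2 between CD49f-low and CD49f-neg and 4 between CD49f-high and CD49f-low. The receptor balance of CD49f-high minus CD49f-neg was -3.83 with the replicate block too, but its exact permutation p was then 0.111, where 216 arrangements are possible; its p under the other alternatives was 0.0179 to 0.0357, and its value without single libraries was -4.20 to -3.51. The replicate block changed no other member's call. Over all rows it moved the calls between CD49f-high and CD49f-neg to 4037 higher and 2371 lower, against 2844 and 1697. Between CD49f-low and CD49f-neg they became 4916 and 890, against 2623 and 537. Between CD49f-high and CD49f-low they became 1657 and 3652, against 1216 and 2151. Of other named genes, 162 of their refits lost the call and none reversed. Median-of-ratios scaling moved the split of all calls between CD49f-low and CD49f-neg to 1117 higher and 1093 lower, against 2623 and 537, and between CD49f-high and CD49f-low to 1614 and 1331, against 1216 and 2151. Between CD49f-high and CD49f-neg, quantile normalization moved it to 2186 higher and 2315 lower, against 2844 and 1697. Depth limits Pdgfb in CD49f-neg, at under 10 estimated fragments.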
